A study of Mus musculus with 6 samples.

Results

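The genes described here are 35 targets of the hypoxia-inducible factors (HIFs) that lie outside glycolysis, collagen modification and VEGF signalling. They were taken from a list of known hypoxia-induced genes by symbol, and each of the 35 matched 1 of the 30587 rows of the deposited count table. RNA was sequenced from dendritic cells grown from bone marrow of C57BL/6 mice, as 3 KO and 3 WT libraries. KO cells were CD11c-Cre;Hif2afl/fl, in which Cre driven by the promoter of the dendritic cell gene CD11c recombines the floxed Hif2a gene, which encodes HIF-2α and whose official symbol is Epas1. WT cells were Hif2afl/fl and carried the same floxed alleles without Cre. Cultures of both genotypes had been kept for 24 h with DMOG, an inhibitor of the prolyl hydroxylases that mark HIF α subunits for destruction, and then for 4 h with the glycolipid α-GalCer. The comparison therefore sets cells with Cre against floxed cells without it, both under chemical HIF stabilisation, with untreated cells not analysed here. The control carries no Cre, CD11c is also expressed by some macrophages, and which exon is floxed is not named in the labels. Nothing in the labels tells if libraries of 1 genotype are separate mice or cultures. P-values therefore reflect only how far these libraries scatter, and that scatter may be technical in part.

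Under normal oxygen, prolyl hydroxylases tag HIF-1α and HIF-2α, and the VHL ubiquitin ligase then has them degraded. When hydroxylation stops, either α subunit pairs with ARNT, binds the core motif ACGTG or GCGTG near its targets and raises their transcription. Besides glycolysis, these targets remove and protect mitochondria, store glucose as glycogen, keep up disulphide formation in the endoplasmic reticulum, buffer pH, send out vasoactive and growth signals, and restrain growth. Many of them, in particular Bnip3, Ankrd37 and Ndrg1, are widely used as readouts of HIF activity, and several others, such as Ier3, Pim1, Maff, Nfil3 and Btg1, also answer to inflammatory or cytokine signals.

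Total counts were 16826800 to 17884160 in the KO libraries and 14668641 to 17041448 in the WT libraries. At least 1 read was found in 25408 rows of WT 2 and 22275 rows of KO 1, against 18763 to 19513 rows of the others. Both thus stood apart among rows with few reads, and also among genes with more reads. Chi-square per degree of freedom between replicates was 18.07 and 19.47 for pairs with WT 2, against 5.045 for WT 1 and WT 3. Pairs with KO 1 gave 13.34 and 7.335, against 4.134 for KO 2 and KO 3. On the second principal component of the tested genes (14.3% of variance), KO 1 lay at 16.0 and WT 2 at 13.5. The other libraries lay at -14.2 to -2.12. Epas1 averaged 11.2 ± 1.55 CPM, the normalised read count scaled to library size, in KO cells and 22.2 ± 1.94 CPM in WT cells (SD, n = 3 each). Reads of Epas1 thus remained in KO cells, protein was not measured in these data, and how much HIF-2α the KO cells kept is not known. Hif1a, for HIF-1α, averaged 112 ± 3.27 CPM in KO cells and 76.6 ± 3.71 CPM in WT cells. Of 13 dendritic cell markers, Itgax (the CD11c gene), Cd74, H2-Ab1, Flt3 and Zbtb46 were present in both genotypes, at 179 CPM in KO cells and 205 CPM in WT cells for Itgax, whereas Cd209a averaged 0.327 CPM in KO cells and 0.257 CPM in WT cells. Of the 13, 4 were lower in KO cells and 5 higher. Macrophage and monocyte markers were also expressed, and 8 of 12 were higher in KO cells and 0 lower. Their summed level was 4492 to 4933 CPM in KO libraries and 3940 to 4164 CPM in WT libraries. The largest rises were those of Fcgr1 (7.77-fold), Ly6c2 (2.40-fold) and Cd14 (2.06-fold), whereas Csf1r, Adgre1, Mertk and Cd68 were not called. Mast cell and basophil markers summed to 81.9 to 89.0 CPM in KO libraries and 50.2 to 57.5 CPM in WT libraries (4 of 7 higher, 0 lower). Kit was 1.51-fold higher, Mcpt8 was 4.07-fold higher at a low level (1.15 CPM in KO cells, 0.273 CPM in WT cells), and Fcer1a was at 0.02 CPM in both. Plasmacytoid markers summed to 314 to 327 CPM in KO libraries and 129 to 160 CPM in WT libraries (2 of 6 higher, nearly all of it Bst2), with Siglech at 0.08 CPM in both. Neutrophil markers summed to 35.3 to 49.6 CPM in KO libraries and 29.3 to 40.7 CPM in WT libraries (2 of 8 higher). Markers of B cells, T and NK cells and erythroid cells each summed to under 4 CPM in every library, and no marker of these or of stroma was called. The part of these marker differences in the results below was not tested, and in bulk RNA fewer cells of a type and less RNA per cell cannot be told apart.

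Most of the hypoxia targets were lower in KO cells, but not all. Of the 35 members, 20 fell and 5 rose (edgeR quasi-likelihood test, adjusted p under 0.05 over all 13249 genes tested), against 12.0% of all tested genes that fell and 13.8% that rose. As shares of the list these were 57.1% and 14.3%. The same 12.0% and 13.8% are the background for the counts by role below. All 35 members passed the filter on low counts. The list was chosen with earlier results of these data known, which limits what these shares can show. The median log2 fold change of the members, KO over WT, was -0.61, and that of all tested genes was -0.01. Falls of at least 1.5-fold were called for 18 members, or 51.4%, against 3.55% of all tested genes, and 10 members fell at least 2-fold, where 1.38% of all tested genes did. The 2 rises of at least 1.5-fold made up 5.71% of the list, against 4.32% of all tested genes. KO and WT libraries did not overlap in 26 members, 21 of them lower and 5 higher in KO, whereas they did not overlap in 20.0% of all tested genes in the lower direction, 20.5% in the higher and 40.4% in either. The number that rose was 3 without KO 1, 3 without KO 3, 3 without WT 1 and 3 without WT 2, while the number that fell lay between 18 and 22 in every alternative run.

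**Figure D1:**
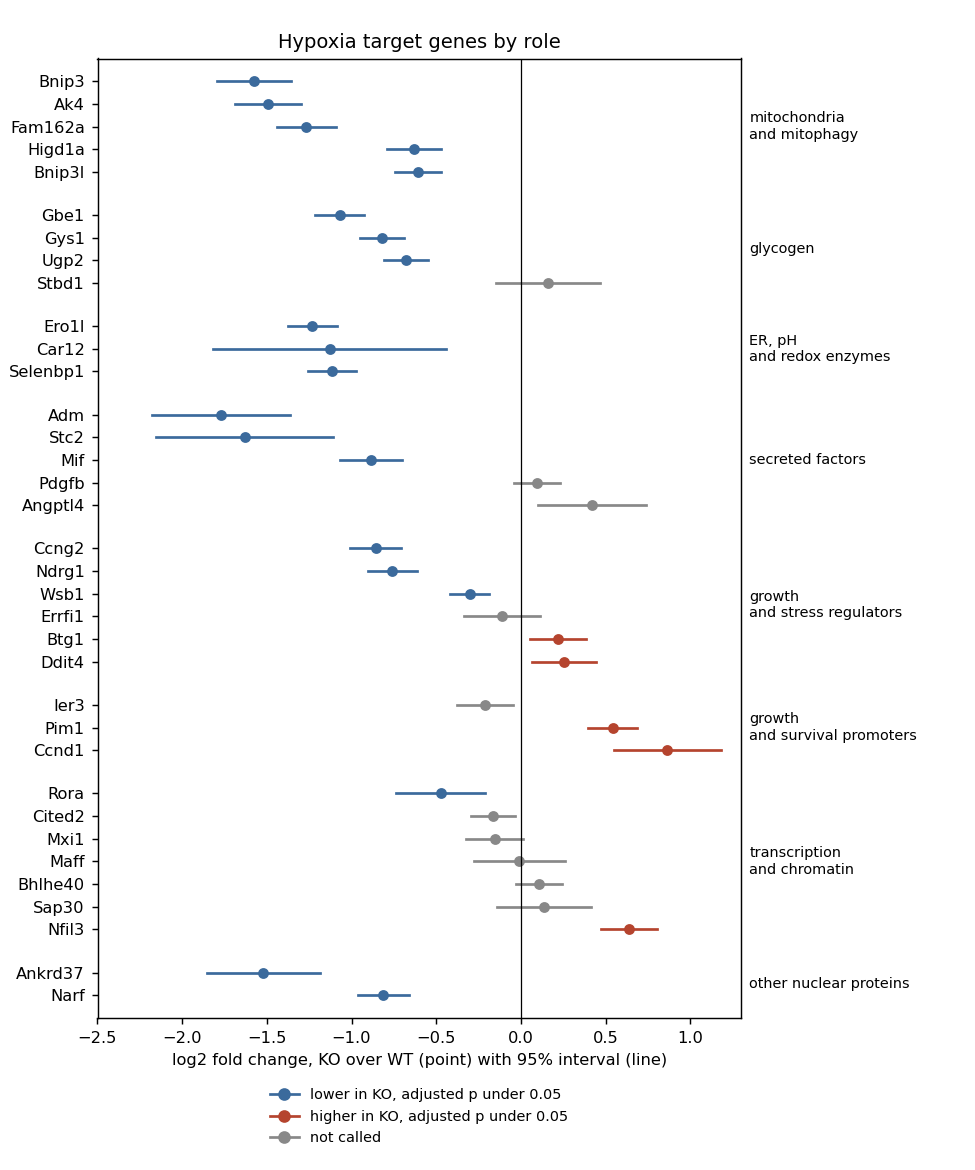
Log2 fold change (KO over WT) of each of the 35 members with its 95% interval, grouped by role and coloured by call (edgeR, n = 3 libraries per genotype). The 5 mitochondrial members lie left of 0, from -1.57 for Bnip3 to -0.61 for Bnip3l, and the growth and survival promoters Pim1 and Ccnd1 lie right of 0, at 0.54 and 0.86.

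**Figure D2:**
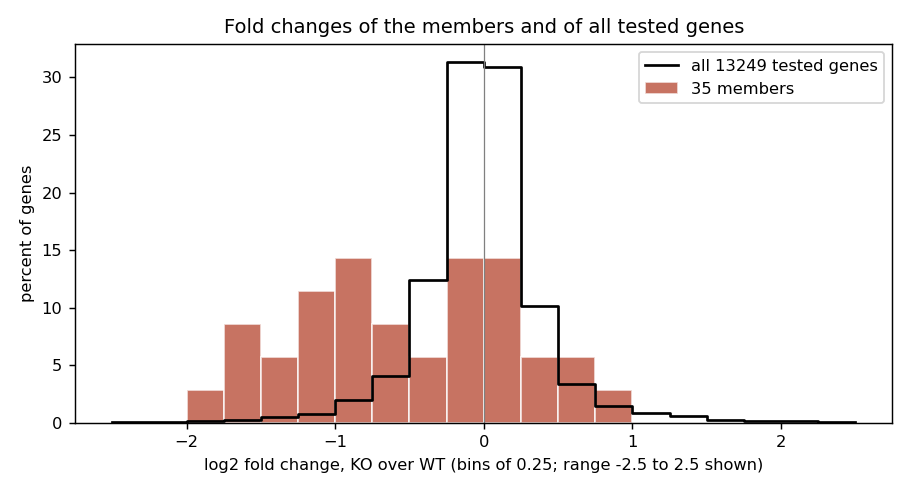
Percent of the 35 members (bars) and of all 13249 tested genes (line) in each bin of log2 fold change, KO over WT. The members are spread from -1.77 to 0.86 with a median of -0.61, while all tested genes centre at -0.01.

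The promoters of the 4 members with the largest falls that hold the HIF core motif are given. These 4 were picked for their fall and for holding the motif, so neither trait is a finding about them. Each line is the 250 bases before the start of transcription in the RefSeq promoter table (GRCm38.p6), written 5′ to 3′ on the strand of the gene, and capitals mark ACGTG or GCGTG on either strand (CACGT or CACGC where it lies on the other strand). Adm lies at chr7:110627407-110627656 on the plus strand, Stc2 at chr11:31370062-31370311, Bnip3 at chr7:138909507-138909756 and Ankrd37 at chr8:45999851-46000100, all 3 on the minus strand.
Adm: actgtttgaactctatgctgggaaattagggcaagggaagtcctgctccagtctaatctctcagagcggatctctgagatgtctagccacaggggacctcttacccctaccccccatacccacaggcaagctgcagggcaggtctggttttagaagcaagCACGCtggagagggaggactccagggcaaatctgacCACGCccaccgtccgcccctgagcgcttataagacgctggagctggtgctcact
Stc2: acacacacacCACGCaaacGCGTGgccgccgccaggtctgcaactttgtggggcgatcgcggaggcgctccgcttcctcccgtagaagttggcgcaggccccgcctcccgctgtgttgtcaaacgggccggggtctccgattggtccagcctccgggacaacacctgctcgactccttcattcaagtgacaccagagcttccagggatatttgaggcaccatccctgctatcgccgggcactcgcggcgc
Bnip3: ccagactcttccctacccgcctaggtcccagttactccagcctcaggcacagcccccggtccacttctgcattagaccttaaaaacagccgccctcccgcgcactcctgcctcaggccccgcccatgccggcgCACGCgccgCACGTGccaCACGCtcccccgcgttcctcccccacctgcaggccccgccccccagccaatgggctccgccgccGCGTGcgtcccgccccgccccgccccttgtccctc
Ankrd37: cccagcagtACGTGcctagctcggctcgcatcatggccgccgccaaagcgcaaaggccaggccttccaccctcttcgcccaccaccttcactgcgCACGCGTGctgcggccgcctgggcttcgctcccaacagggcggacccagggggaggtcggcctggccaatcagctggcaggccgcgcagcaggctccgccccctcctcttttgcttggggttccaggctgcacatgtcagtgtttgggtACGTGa
Adm had 2 GCGTG matches, the nearer ending 50 bases before the start, and Stc2 had 2, both ending at least 227 bases before it. Bnip3 had matches at 5 places counted over both strands, of which 2 overlap in the palindrome CACGTG, 103 to 108 bases before the start. Ankrd37 had 4, one of them ending 2 bases before the RefSeq start. GENCODE places the start of a protein-coding Ankrd37 transcript further upstream, so that the last 17 bases of its window, that match included, lie in an annotated exon of Ankrd37. The last 13 bases of the Bnip3 and Stc2 windows likewise lie in an exon of the same gene, and a further annotated Ankrd37 transcript spans the whole Ankrd37 window within an intron.

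The motif was found in members of every call. A promoter entry was found for 29 of the 35 members, Ero1l under its RefSeq name Ero1a, and the members without one were Ndrg1, Bnip3l, Pdgfb, Bhlhe40, Angptl4 and Ccnd1. ACGTG or GCGTG occurred in the 250 bases before a start in 24 of the 29 (82.8%), against 61.2% of the 9697 tested genes with an entry and 41.5% of all 27025 genes with one. By call it was held by 14 of 18 members that fell, 7 of 7 that were not called and 3 of 4 that rose. The members that fell without it were Car12, Gbe1, Mif and Gys1, and the one that rose without it was Nfil3. ACGTG, with or without GCGTG, occurred in 9 of the 18 that fell, 6 of the 7 not called and 2 of the 4 that rose. It occurred in 25.0% of the tested genes with an entry. GCGTG, with or without ACGTG, occurred in 14 of the 18 that fell, 4 of the 7 not called and 2 of the 4 that rose. Of the tested genes with an entry, 49.9% held GCGTG. Whether either motif differs by call was not tested. Promoters of the members were rich in CG, with a median of 22 CG dinucleotides in 250 bases against 17 in tested genes, and both motifs contain CG. A match describes these letters only and does not show binding.

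All 5 mitochondrial members fell. Bnip3, whose product is a receptor on the outer mitochondrial membrane that hands mitochondria to autophagy (chromosome 7, 138890836 to 138909519, minus strand, mm10), had 43.4, 30.7 and 40.1 CPM in the KO libraries, against 121, 115 and 104 CPM in the WT libraries. Every KO library lay far below every WT library, and Bnip3 was 2.98-fold lower (log2 fold change -1.57 ± 0.10 SE, edgeR adjusted p = 1.10e-07). Of all genes tested, 0.408% had a lower log2 fold change. Bnip3l, for the related mitophagy receptor NIX, had 243, 223 and 230 CPM in KO libraries and 366, 350 and 343 CPM in WT libraries. Its fall was smaller, 1.52-fold (log2 fold change -0.61 ± 0.06, edgeR adjusted p = 1.30e-05), and per kilobase of exon Bnip3l was the more abundant of the pair, with 60.1 CPM per kb in KO cells and 91.5 CPM per kb in WT cells against 16.8 and 50.1 CPM per kb for Bnip3. Ak4, a nucleoside phosphate kinase of the mitochondrial matrix, had 22.5, 18.4 and 17.8 CPM in KO libraries and 53.8, 55.7 and 56.0 CPM in WT libraries, a 2.81-fold fall (edgeR adjusted p = 5.17e-08). Fam162a, for a mitochondrial protein that promotes cell death under hypoxia, had 63.6, 53.4 and 54.0 CPM in KO libraries and 145, 144 and 123 CPM in WT libraries (2.41-fold lower, edgeR adjusted p = 9.76e-08). Higd1a, for a small inner membrane protein that associates with the respiratory chain, had 31.7, 29.6 and 28.6 CPM in KO libraries and 48.4, 47.0 and 43.9 CPM in WT libraries (1.55-fold lower, edgeR adjusted p = 3.38e-05). In none of the 5 did a KO library reach a WT library, and each stayed called in all 15 alternatives. Bnip3, Bnip3l, Ak4 and Higd1a have near-identical copies elsewhere in the annotation. Bnip3l-ps, annotated as a processed transcript, held 3040 reads over the 6 libraries against 28788 for Bnip3l and was itself lower in KO cells (log2 fold change -0.69 ± 0.07). How reads were divided between such copies is not given in the sources used here, which leaves the values of these 4 genes uncertain to that extent.

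The enzymes that make glycogen fell, and the protein that tethers it did not pass the test. Gys1, the glycogen synthase found outside liver, had 86.2, 78.9 and 82.3 CPM in KO libraries and 139, 146 and 152 CPM in WT libraries (1.76-fold lower, log2 fold change -0.82 ± 0.06, edgeR adjusted p = 3.26e-07). Gbe1, the branching enzyme, had 44.4, 40.2 and 43.7 CPM in KO libraries and 96.8, 86.9 and 85.7 CPM in WT libraries (2.10-fold lower, log2 fold change -1.07 ± 0.07, edgeR adjusted p = 9.31e-08). Ugp2, which makes the UDP-glucose that glycogen synthase uses, had 97.8, 90.1 and 90.3 CPM in KO libraries and 157, 147 and 142 CPM in WT libraries (1.60-fold lower, log2 fold change -0.68 ± 0.06, edgeR adjusted p = 2.59e-06). The KO libraries lay below the WT libraries in each of these 3 genes. Stbd1, which anchors glycogen to membranes and takes part in its delivery to lysosomes, had 11.3 to 15.5 CPM in KO libraries and 9.82 to 13.8 CPM in WT libraries, and the groups overlapped (log2 fold change 0.16, 95% interval -0.15 to 0.47, edgeR adjusted p = 0.444). Gys1 overlaps Ruvbl2 by 310 exonic bases on the other strand, and Fam162a overlaps Wdr5b by 168. Ankrd37 overlaps Lrp2bp by 349 and Ufsp2 by 57, and Ccnd1 overlaps LTO1 by 1100. Antisense genes overlap Bnip3 by 504, Higd1a by 683 and Ndrg1 by 419 bases, among other members. The strand setting of the counting is not stated, so reads from such pairs cannot be told apart. Wdr5b was lower in KO cells (log2 fold change -0.50, edgeR adjusted p = 0.0242) and held 517 reads over the 6 libraries against 9468 for Fam162a. Ruvbl2 had a log2 fold change of -0.005 (edgeR adjusted p = 0.976), and Lrp2bp, with 22 reads, was not tested. Ufsp2 held more reads than its neighbour, 3444 over the 6 libraries against 637 for Ankrd37.

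The 3 enzymes of the endoplasmic reticulum, pH control and redox chemistry fell more than 2-fold. Ero1l, the oxidase that drives disulphide formation by protein disulphide isomerase (chromosome 14, 45283087 to 45318771, minus strand), had 278, 245 and 251 CPM in KO libraries and 603, 599 and 616 CPM in WT libraries. It was 2.35-fold lower (log2 fold change -1.23 ± 0.07) and had the lowest adjusted p of the 35 (edgeR adjusted p = 2.05e-08). Selenbp1, a selenium-binding methanethiol oxidase, had 71.5, 61.7 and 64.0 CPM in KO libraries and 137, 150 and 140 CPM in WT libraries (2.17-fold lower, edgeR adjusted p = 4.53e-08). Selenbp1 is 98.5% identical over its whole transcript to Selenbp2, which held 60 reads in all libraries against 10142 for Selenbp1, so its value rests on how reads were assigned between them. Car12, a carbonic anhydrase of the cell surface, was close to the detection limit, with 14, 10 and 11 reads (0.767, 0.592 and 0.638 CPM) in KO libraries and 26, 19 and 24 reads (1.54, 1.23 and 1.64 CPM) in WT libraries. The groups did not overlap and the fall of 2.19-fold was called (log2 fold change -1.13 ± 0.32, edgeR adjusted p = 0.0195), but it was not called without KO 2, KO 3, WT 1 or WT 3 in turn, nor by the DESeq2 Wald test (log2 fold change -1.04 to -1.14, adjusted p 0.0526 to 0.0751).

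**Figure D3:**
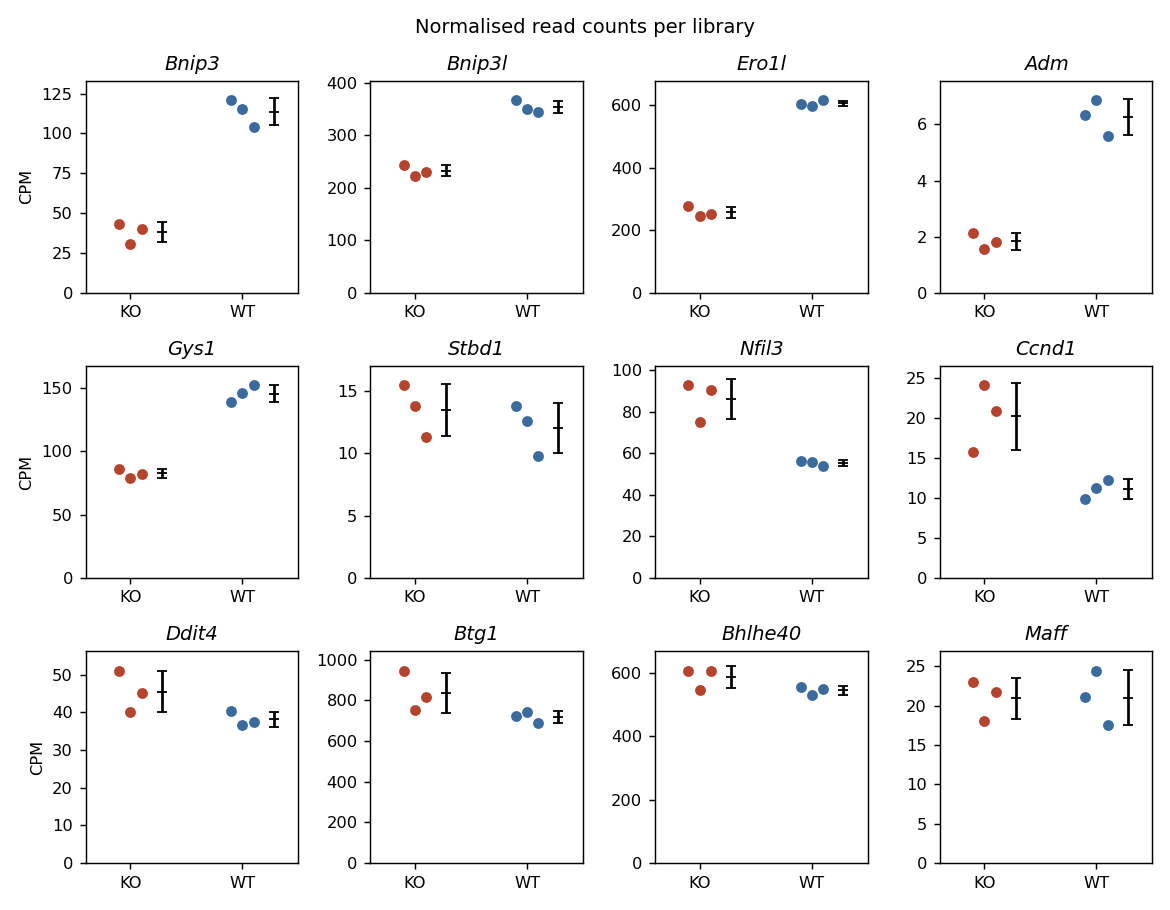
Normalised read count (CPM, linear axis from 0) of 12 members in each KO and WT library, shown as points, with mean and SD (n = 3) beside them. KO libraries lie below all WT libraries for Bnip3, Bnip3l, Ero1l, Adm and Gys1, above them for Nfil3, Ccnd1 and Btg1, and overlap them for Stbd1, Ddit4, Bhlhe40 and Maff.

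Among the secreted factors 3 of 5 fell and 0 rose. Adm, for the vasodilator peptide adrenomedullin (chromosome 7, 110627661 to 110629820, plus strand), had the largest fall of the 35 in size, with 2.14, 1.54 and 1.80 CPM in KO libraries and 6.33, 6.86 and 5.59 CPM in WT libraries. The fall was 3.41-fold (log2 fold change -1.77 ± 0.19, edgeR adjusted p = 1.40e-05), at a low level of 26 to 39 reads in KO libraries and 82 to 107 reads in WT libraries. Stc2, for the glycoprotein hormone stanniocalcin 2, had 1.04, 0.888 and 1.04 CPM in KO libraries and 2.96, 2.85 and 3.48 CPM in WT libraries, or 15 to 19 reads against 44 to 51 reads (3.10-fold lower, edgeR adjusted p = 0.000264). Mif, for macrophage migration inhibitory factor, was the most abundant member per kilobase, at 271 CPM per kb in KO cells and 500 CPM per kb in WT cells. It had 216, 188 and 202 CPM in KO libraries and 383, 406 and 328 CPM in WT libraries (1.85-fold lower, edgeR adjusted p = 4.97e-06), and has several pseudogene copies of over 95% identity, so its value too depends on how reads were assigned. Angptl4, an inhibitor of lipoprotein lipase that is also a target of fatty acid receptors, did not pass the test. It had 11.2, 11.1 and 9.80 CPM in KO libraries and 6.27, 8.55 and 9.27 CPM in WT libraries, with every KO library above every WT library (log2 fold change 0.42, 95% interval 0.10 to 0.74, edgeR adjusted p = 0.0519, and 0.0267 to 0.198 over the alternatives). Pdgfb, a growth factor chain, had 73.9 to 83.5 CPM in KO libraries and 72.5 to 77.9 CPM in WT libraries (log2 fold change 0.10, 95% interval -0.04 to 0.23, edgeR adjusted p = 0.295).

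Regulators of growth and stress signalling split, with 3 of 6 lower and 2 higher. Ccng2, an atypical cyclin that restrains the cell cycle, had 44.3, 38.3 and 44.0 CPM in KO libraries and 77.1, 73.4 and 78.8 CPM in WT libraries (1.81-fold lower, log2 fold change -0.86 ± 0.07, edgeR adjusted p = 1.04e-06). Ndrg1, a stress-induced growth suppressor (chromosome 15, 66929318 to 66969640, minus strand), had 117, 101 and 110 CPM in KO libraries and 196, 180 and 179 CPM in WT libraries (1.69-fold lower, log2 fold change -0.76 ± 0.07, edgeR adjusted p = 2.59e-06). KO libraries lay below WT libraries in both. Wsb1, a substrate receptor of a ubiquitin ligase, fell by a smaller amount, with a log2 fold change of -0.30 ± 0.05 (edgeR adjusted p = 0.00101). Ddit4, which restrains mTORC1 and is induced by glucocorticoids and stress as well as by hypoxia, had 51.1, 40.2 and 45.2 CPM in KO libraries and 40.3, 36.6 and 37.5 CPM in WT libraries. The lowest KO library overlapped the highest WT library, and the rise was close to the threshold (log2 fold change 0.25 ± 0.09, edgeR adjusted p = 0.0485). Btg1, an antiproliferative gene and the third most abundant member per kilobase in WT cells, had 946, 753 and 814 CPM in KO libraries and 723, 744 and 687 CPM in WT libraries (log2 fold change 0.22 ± 0.08, edgeR adjusted p = 0.0484). KO 1 was the highest library for both, and without it the log2 fold changes were 0.16 and 0.13 (edgeR adjusted p = 0.157 and 0.139, in ranges over the alternatives of 0.00968 to 0.332 and 0.00733 to 0.139). Both also missed the threshold without WT 1 (0.30 and 0.23), WT 2 (0.23 and 0.25), WT 3 (0.25 and 0.20) or KO 3 (0.26 and 0.24). Errfi1, a feedback inhibitor of the EGF receptor, had 13.7 to 16.0 CPM in KO libraries and 14.3 to 16.8 CPM in WT libraries (log2 fold change -0.11, 95% interval -0.33 to 0.11, edgeR adjusted p = 0.483).

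Of the 3 promoters of growth and survival, 2 rose and 0 fell. Ccnd1, for cyclin D1, which drives entry into the cell cycle (chromosome 7, 144929931 to 144939925, minus strand), had 15.7, 24.1 and 20.9 CPM in KO libraries and 9.88, 11.2 and 12.3 CPM in WT libraries. It was the member with the highest fold change, 1.82-fold (log2 fold change 0.86 ± 0.15, edgeR adjusted p = 0.000731), and unlike the other members that rose it was lowest in KO 1. Pim1, a serine/threonine kinase induced by cytokines through STAT factors, had 155, 131 and 134 CPM in KO libraries and 96.6, 97.4 and 94.8 CPM in WT libraries (1.46-fold higher, log2 fold change 0.54 ± 0.07, edgeR adjusted p = 6.02e-05). Every KO library exceeded every WT library for both genes, and both were called in all 15 alternatives. Ier3, an early response gene that protects from apoptosis, had 55.0 to 67.3 CPM in KO libraries and 65.9 to 72.7 CPM in WT libraries (log2 fold change -0.21, 95% interval -0.38 to -0.05, edgeR adjusted p = 0.0564, and 0.00543 to 0.199 over the alternatives). It was called lower in 6 of the 15, among them without KO 1 (-0.29).

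Of the 7 transcription and chromatin factors, 1 fell, 1 rose and 5 were not called. These counts are close to the shares of all tested genes, 12.0% lower and 13.8% higher. Nfil3, a basic leucine zipper factor needed for several lymphoid and dendritic cell lineages (chromosome 13, 52967209 to 52981073, minus strand), had 92.6, 75.2 and 90.5 CPM in KO libraries and 56.3, 55.8 and 53.8 CPM in WT libraries. All KO libraries were above all WT libraries (1.56-fold higher, log2 fold change 0.64 ± 0.08, edgeR adjusted p = 4.18e-05). Rora, for the nuclear receptor RORα, was 1.39-fold lower, at 17.4 to 21.5 CPM in KO libraries and 22.8 to 31.2 CPM in WT libraries (log2 fold change -0.47 ± 0.12, edgeR adjusted p = 0.0119), but was not called without WT 3 (-0.33, edgeR adjusted p = 0.0558) or KO 3 (-0.44, edgeR adjusted p = 0.0666). The 5 not called were the MYC antagonist Mxi1, Cited2, which competes with HIF for its coactivators, the repressor Bhlhe40, the small Maf protein Maff and the Sin3 complex subunit Sap30. Their log2 fold changes ran from -0.16 for Cited2 to 0.14 for Sap30, and the 95% intervals from -0.32 at the low end (Mxi1) to 0.42 at the high end (Sap30). Cited2 came close to a call, with every KO library below every WT library (95% interval -0.30 to -0.03, edgeR adjusted p = 0.0642). It was called lower in 3 of the 15 alternatives, and Mxi1 in 2. Bhlhe40 was abundant, at 546 to 608 CPM in KO libraries and 530 to 557 CPM in WT libraries, with a 95% interval of -0.03 to 0.24. Maff had the value nearest to 0, at 18.0 to 23.1 CPM in KO libraries and 17.5 to 24.5 CPM in WT libraries, and Maff and Sap30 each had a log2 fold change on both sides of 0 over the alternatives.

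Both remaining members, which act in the nucleus or have no settled role, fell. Ankrd37, an ankyrin repeat protein gene (chromosome 8, 45996902 to 46005707, minus strand), had 3.95, 2.90 and 3.31 CPM in KO libraries and 10.6, 9.06 and 9.55 CPM in WT libraries (2.87-fold lower, log2 fold change -1.52 ± 0.15, edgeR adjusted p = 9.21e-06). Narf, for a protein that binds prelamin A, had 35.1, 35.4 and 34.97 CPM in KO libraries and 63.3, 56.8 and 65.1 CPM in WT libraries (1.76-fold lower, log2 fold change -0.81 ± 0.07, edgeR adjusted p = 1.62e-06). In both genes every KO library lay below every WT library, and the KO libraries of Narf differed by an SD of 0.227 CPM.

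**Figure D4:**
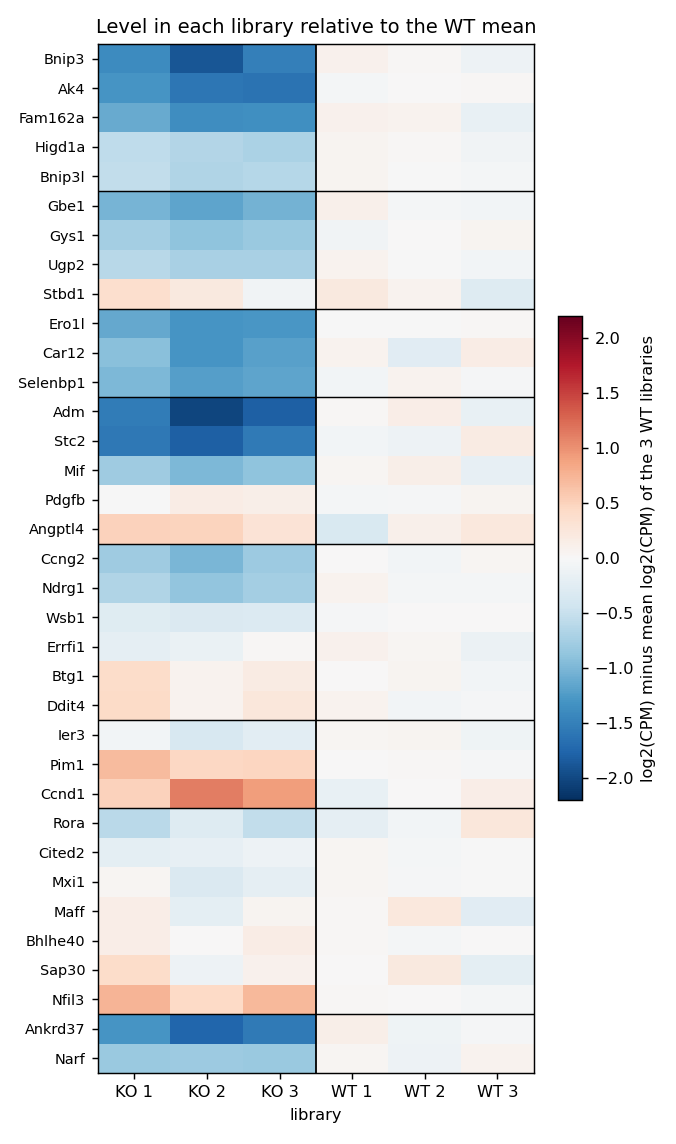
Level of each of the 35 members in each library, as log2(CPM) minus the mean log2(CPM) of the 3 WT libraries, ordered by role. Within the KO columns the 20 members that fell are least reduced in KO 1 for 17 and most reduced in KO 2 for 16.

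Within the KO genotype, the libraries differed in these genes. KO 1 had the highest level of the 3 KO libraries in 27 of the 35 members, whereas it was the highest in 37.0% of all tested genes. KO 2 had the lowest in 25 of 35, where it was lowest in 36.0% of all tested genes. The difference ran the same way in members that fell and in members that rose: KO 1 was the highest in 17 of the 20 that fell, 4 of the 5 that rose and 6 of the 10 not called. Relative to the KO mean, the median member stood at 0.10 in KO 1, -0.09 in KO 2 and -0.01 in KO 3 on the log2(CPM + 0.5) scale, while the median of all tested genes was within 0.004 of 0 in each. In the WT libraries the median member lay between -0.02 and 0.03. In the KO libraries, residual Epas1 stood in the reverse order of the median member, with 9.59 CPM in KO 1, 12.7 CPM in KO 2 and 11.5 CPM in KO 3. Hif1a stood in the same order as the median member, with 116, 109 and 112 CPM. Whether either is tied to the order of the members was not tested. KO 1 also lay with WT 2 on the second principal component of all tested genes (16.0 and 13.5). The labels give no batch for these libraries, and what sets KO 1 apart was not tested. The median log2 fold change of the members was -0.64 without KO 1 and -0.65 without WT 2 and KO 1, with 22 lower and 3 higher in both.

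**Figure D5:**
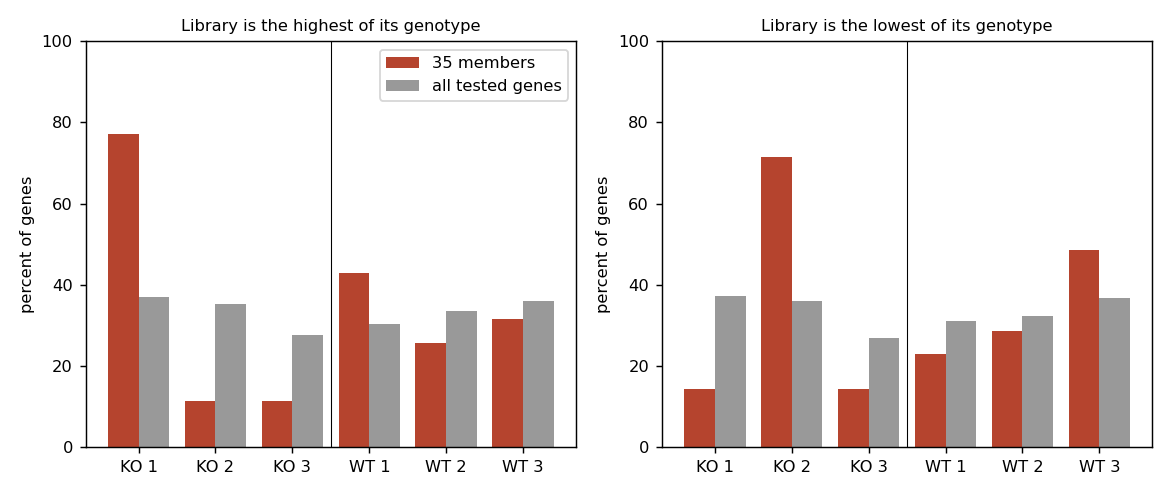
Percent of the 35 members (red) and of all tested genes (grey) for which each library was the highest (left) or lowest (right) of the 3 libraries of its genotype, on an axis from 0 to 100 percent. KO 1 was the highest in 27 of 35 members and KO 2 the lowest in 25 of 35, against 37.0% and 36.0% of all tested genes.

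Other genes of the pathway were read from lists of the same kind, also chosen with earlier results of these data known. Of all tested genes, 12.0% fell and 13.8% rose. Of 25 glycolytic, collagen and VEGF targets, 20 fell and 2 rose, with a median log2 fold change of -0.77. The 3 with the lowest p were the glycolytic enzymes Pgk1, Eno1 and Aldoc, with log2 fold changes of -1.26, -0.92 and -1.06. Of 10 genes of oxygen sensing, 9 were tested, 4 fell and 1 rose. The prolyl hydroxylase genes Egln3 and Egln1, which HIFs themselves induce, fell by 1.28 and 0.73 on the log2 scale (edgeR adjusted p = 4.61e-08 and 4.13e-06), Epas1 fell by 0.98 and Vhl by 0.23, and Hif1a rose by 0.55. Of 25 further hypoxia targets, 22 were tested, 10 fell and 4 rose, with a median log2 fold change of -0.20. The lowest p were those of the histone demethylase gene Kdm3a (-0.62), the phosphatase gene Dusp1 (0.87) and the lipoprotein receptor gene Vldlr (-1.94). Whether these lists differ from the 35 members was not tested.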

How the data were processed

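The authors' deposited file holds raw, unnormalized read counts of 6 libraries in rows named by gene symbol. Per the submitters' processing notes, reads were processed on mm10, with HTSeq, SAMtools, HISAT, HISAT2, TopHat2 and DESeq2 named without version or role. Annotation and strand setting: not given in the sources used here. Trizol was used to extract total RNA, per the labels' protocols. For 23 repeated symbols, none a member, the row with most reads kept the name.

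Rows passing filterByExpr (minimum count 10) were scaled by TMM factors, and edgeR 4.0.16 (R 4.3.3) tested KO against WT with its quasi-likelihood method. Benjamini-Hochberg adjustment ran over the 13249 tested rows, and genes with an adjusted p under 0.05 were called. CPM were computed from these counts on the TMM-scaled library size. The SE is the log2 fold change divided by the square root of F. The common biological coefficient of variation was 8.48%. With 3 libraries per genotype the number of libraries and, for genes with few reads, counting error limit the precision. The procedure was tested on simulated data.

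All members were named, with values in every library for those called at 1.5-fold or more or called higher, and up to 3 genes by lowest p from each other list. The members, lists and alternatives were chosen with earlier results of these data known. Alternatives were DESeq2 size factors, library size only, no filter, 10 counts in every library of a genotype, limma-voom (limma 3.58.1), the DESeq2 1.42.0 Wald test, omission of each library in turn, omission of WT 2 and KO 1 together, a replicate block, and robust dispersion. Coordinates, exon lengths and overlaps are from GENCODE M21 (mm10), and promoters are RefSeq sequences on GRCm38.p6. Near-identical copies were sought with blastn among GENCODE transcripts (at least 95% identity over 100 bases). Replicates differed by more than sampling noise (chi-square per degree of freedom 4.13 to 19.47).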

Additional observations from a re-analysis of the deposited data

How the results depend on the processing

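Of the 35 members, 27 kept their call in all 15 alternatives, and the others were Ddit4, Btg1, Car12 and Rora, which lost it in some, and Angptl4, Ier3, Cited2 and Mxi1, which gained one in some. The number of members that rose, 5, was 3 to 5 with 1 library left out and 3 without WT 2 and KO 1, and the number that fell was 18 to 22 with 1 library left out. The median log2 fold change of the members was -0.64 to -0.57 with 1 library left out. Over all genes, with 1 library left out, 945 to 1622 fell and 1182 to 1992 rose, and the lowest counts were those without KO 3. The cause of these differences between libraries was not tested, apart from the loss of 1 library. Library size only left 62.3% of calls higher in KO cells, against 53.5%, and gave the members 20 lower and 6 higher, with Angptl4 called. Deviations from the genotype mean correlated at 0.0068, -0.144 and 0.0948 between same-numbered libraries. Between libraries of unlike number the correlations ran from -0.254 (KO 1 with WT 3) to 0.232 (KO 1 with WT 2). With 3 libraries per genotype, these values cannot tell whether the numbers pair the libraries. With the replicate number as a block, 21 members fell and 5 rose, the added one being Ier3 (-0.21), with a median log2 fold change of -0.61, and 1506 of all genes fell and 1741 rose. Depth limits Car12, Stc2 and Adm most.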
